A study of Homo sapiens with 9 samples.

Results

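Collagens, laminins and the glycoproteins, elastic fibre proteins and crosslinking enzymes that go with them were followed in HT1080, a human fibrosarcoma cell line. The set was a list of 44 genes written with earlier results of these data known. A gene was kept where a probe set annotated to its symbol alone had values. This held for 30 of the 44 genes, out of 9453 genes with values in the series. The 30 genes had 50 probe sets with values, of 122 probe sets annotated to the 44 symbols.

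Expression was measured on 9 Affymetrix arrays, 3 for each of 3 groups. The first group was MTAP-positive HT1080 cells given MT-DADMe-ImmA at 10 µM over the last 48 hours before harvest, the second was untreated MTAP-positive HT1080 cells, and the third was untreated MTAP-negative HT1080 cells. MTAP (methylthioadenosine phosphorylase) breaks down methylthioadenosine, which arises when polyamines are made, and the compound MT-DADMe-ImmA blocks the enzyme with tight binding. Per the series' design text, the replicates are biological. The sources used here do not say how MTAP-positive cells were made or whether they are 1 clone, so an effect of the enzyme and any other difference between the MTAP-positive and MTAP-negative cells cannot be told apart. There was no group of MTAP-negative cells with the inhibitor, so an effect of the compound through MTAP and one through another target cannot be told apart either.

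The extracellular matrix is built from secreted proteins that assemble outside the cell. Network collagens and laminins form the 2 sheets of the basement membrane, nidogen and perlecan join them, fibronectin and microfibrils form fibres, thrombospondins, tenascin and SPARC modulate cell contact with that scaffold, and lysyl oxidases crosslink collagen and elastin. Fibrosarcoma cells such as HT1080 are a common model of invasion through basement membrane. Values are log2 expression after RMA, a method that corrects background, normalises arrays and summarises the probes of a probe set, so a difference of 1 is 2-fold. Each gene is represented by its brightest probe set. Probe sets differ in sensitivity, so levels are compared between groups within a gene and never between genes.

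The checks of the samples were as follows. MTAP read 11.20 ± 0.10 in inhibitor-treated cells and 11.58 ± 0.19 in MTAP-positive cells, against 4.56 ± 0.41 in MTAP-negative cells (SD, n = 3 each), so the labels matched the targeted gene. Of 8 mesenchymal markers 3 had values (VIM, CDH2 and ENG), and the group means of VIM lay between 13.93 and 14.02. None of 6 epithelial, 4 endothelial, 4 blood and 3 smooth muscle markers had a value on any array. RNA quality varied. The ACTB control, read as its 5' probe set minus its 3' probe set, averaged -1.64 ± 0.66 in inhibitor-treated cells, -1.43 ± 0.45 in MTAP-positive cells and -2.50 ± 0.90 in MTAP-negative cells (SD, n = 3 each), with -3.52 in MTAP-negative replicate 3.

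The sequence upstream of 6 of the genes, in 5 windows, is shown first because the results below return to these genes. THBS2 and FN1 had the 2 largest differences between MTAP-positive and MTAP-negative cells, LOX and LOXL1 moved in opposite directions with the inhibitor, and COL4A1 and COL4A2 are neighbours that start from 1 shared stretch. Each of the first 4 lines holds the 250 bases before the start of the gene on its own strand, and the last holds the 126 bases between the starts of COL4A1 and COL4A2 on the strand of COL4A2. All are from RefSeq on GRCh38.p14 and read 5′ to 3′. They lie at chr6:169253847-169254096 (minus strand, THBS2), chr2:215436069-215436318 (minus strand, FN1), chr5:122078260-122078509 (minus strand, LOX), chr15:73926212-73926461 (plus strand, LOXL1) and chr13:110307158-110307283 (plus strand, COL4A1 to COL4A2). Capitals mark matches on either strand to 4 motifs chosen with the sequences in view: the TATA box (TATAAA), the CCAAT box (letters CCAAT), the GC box (GGGCGG) and the cyclic AMP response element (TGACGTCA), whose letters read the same on both strands.
THBS2: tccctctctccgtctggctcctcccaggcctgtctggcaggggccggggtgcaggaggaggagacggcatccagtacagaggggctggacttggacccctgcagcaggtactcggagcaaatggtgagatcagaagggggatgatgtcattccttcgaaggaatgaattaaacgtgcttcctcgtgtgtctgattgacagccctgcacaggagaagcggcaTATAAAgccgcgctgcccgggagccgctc
FN1: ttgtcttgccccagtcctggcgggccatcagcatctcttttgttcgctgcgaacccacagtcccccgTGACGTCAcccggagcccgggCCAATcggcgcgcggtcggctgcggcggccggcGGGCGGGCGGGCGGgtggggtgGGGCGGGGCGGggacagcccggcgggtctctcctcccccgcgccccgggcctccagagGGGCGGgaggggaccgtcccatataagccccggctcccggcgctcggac
LOX: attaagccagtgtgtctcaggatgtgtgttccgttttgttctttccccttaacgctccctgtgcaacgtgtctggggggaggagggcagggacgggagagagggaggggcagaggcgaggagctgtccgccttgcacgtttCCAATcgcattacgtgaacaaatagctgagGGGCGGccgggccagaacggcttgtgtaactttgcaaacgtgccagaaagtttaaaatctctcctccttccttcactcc
LOXL1: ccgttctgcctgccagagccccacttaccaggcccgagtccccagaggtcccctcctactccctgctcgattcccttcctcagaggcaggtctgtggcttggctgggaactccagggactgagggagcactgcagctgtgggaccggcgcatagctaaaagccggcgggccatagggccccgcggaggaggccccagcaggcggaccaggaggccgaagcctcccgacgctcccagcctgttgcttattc
COL4A1-COL4A2: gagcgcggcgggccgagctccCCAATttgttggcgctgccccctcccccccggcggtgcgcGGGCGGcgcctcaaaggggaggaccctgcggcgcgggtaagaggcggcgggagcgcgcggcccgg
The window of THBS2 held a TATA box, as did 12.0% of 27305 RefSeq windows and 3 of the 25 genes of the set that had a window. The shares of all windows and the counts of the 25 are from longer windows, which also take in bases past the start of the gene. FN1 held the cyclic AMP response element, which 1.97% of all windows and no other gene of the set held. It also held a CCAAT box, found in 35.7% of all windows and 7 of the 25, and GC boxes, found in 44.5% of all windows and 18 of the 25. Adjacent GC boxes in FN1 share bases. The windows of LOX and of the COL4A1 to COL4A2 stretch held 1 CCAAT box and 1 GC box each, and that of LOXL1 held none of the 4. A match describes letters and was not tested as a binding site.

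Matrix genes were mostly higher in MTAP-positive than in MTAP-negative cells. Of the 30 genes 16 rose (53.3%) and 0 fell, where over all 9452 genes other than MTAP 11.7% rose and 6.85% fell (limma with Benjamini-Hochberg adjustment over all genes, adjusted p under 0.05). The median log2 difference was 0.47 over the 30 genes and 0.02 over all genes. All 3 MTAP-positive arrays lay above all 3 MTAP-negative arrays for 18 of the 30 genes (60%), against 19.6% of all genes. The genes were listed with earlier results of these data known, so shares of the set above those of all genes are not independent support. This holds for the other comparisons below too. In bulk RNA of a culture, fewer cells making a transcript and less of it per cell cannot be told apart. The plot of values by array shows each gene.

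**Figure D1:**
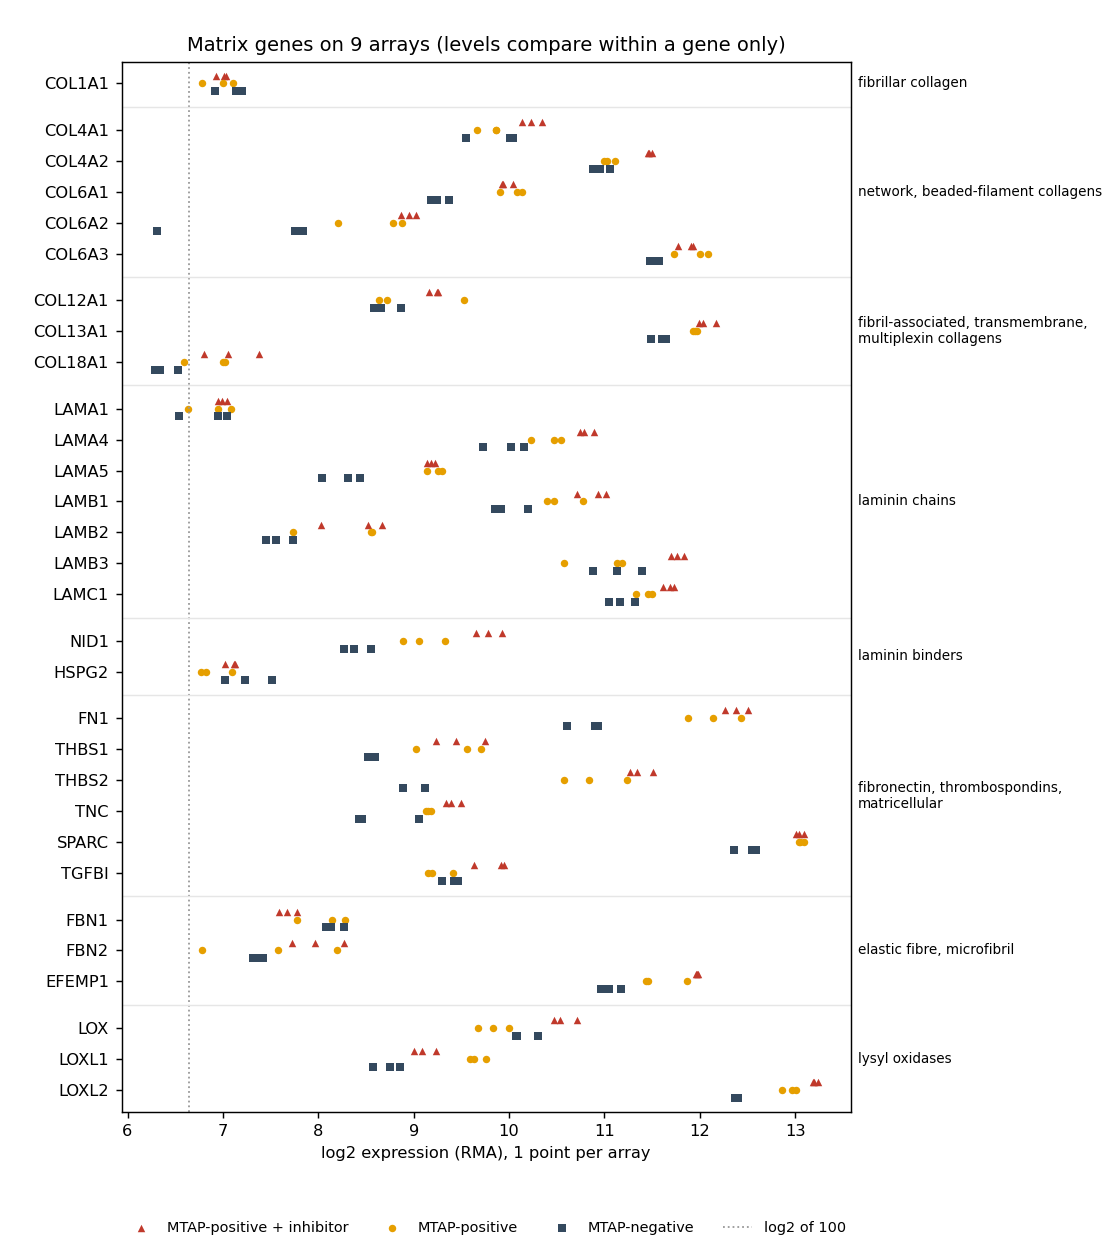
Log2 expression (RMA) of the 30 matrix genes on 9 arrays, 1 point per array, with inhibitor-treated MTAP-positive cells as triangles, MTAP-positive cells as circles and MTAP-negative cells as squares. THBS2 and FN1 show the MTAP-negative arrays well to the left of the other 6, and COL6A2 has 1 MTAP-negative array at 6.31, far from the others at 7.76 and 7.84; the dotted line is log2 of 100.

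The inhibitor changed fewer of them. Against untreated MTAP-positive cells, 5 of the 30 genes rose (16.7%) and 1 fell (3.33%), where 5.95% of all genes rose and 7.49% fell. The risers were LAMB3, LOX, NID1, TGFBI and COL4A2, and LOXL1 fell. The median log2 difference was 0.25 over the 30 genes and -0.02 over all genes. All 3 inhibitor-treated arrays lay above all 3 MTAP-positive arrays for 13 of the 30 (43.3%), against 15.6% of all genes, and below them for 1 gene (LOXL1), against 19.1%. Against MTAP-negative cells, inhibitor-treated cells had 23 genes that rose (76.7%) and 1 that fell, with 18.8% of all genes rising and 16.2% falling. The 3 comparisons use the same 9 arrays and share groups, so they are not independent of each other.

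**Figure D2:**
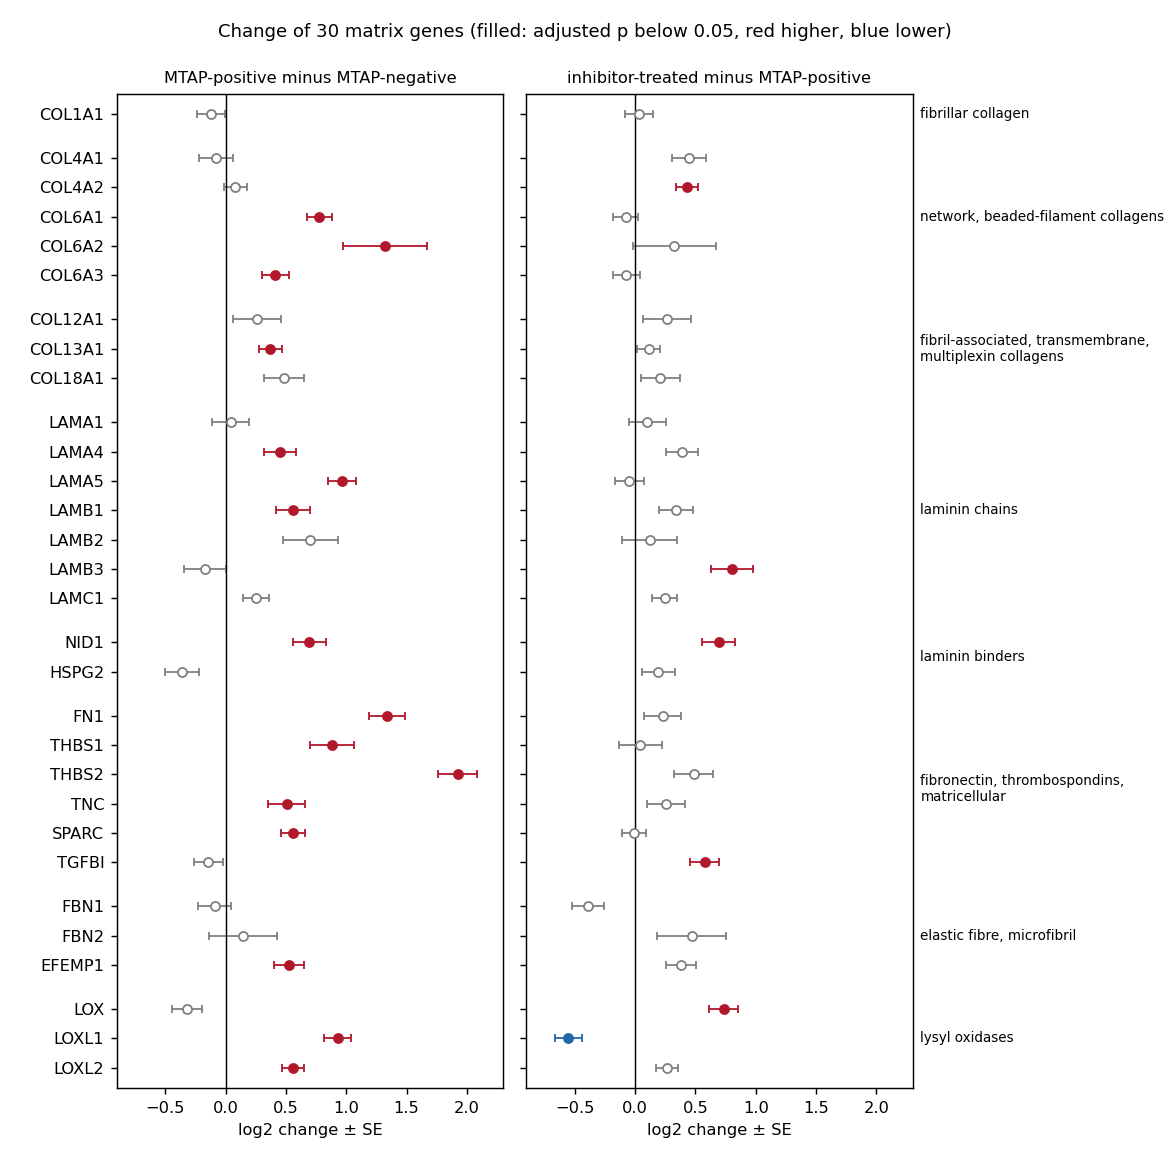
Log2 change ± SE of the 30 matrix genes in MTAP-positive minus MTAP-negative cells (left) and inhibitor-treated minus MTAP-positive cells (right), 3 arrays per group, with filled points for adjusted p under 0.05. THBS2 at 1.92 and FN1 at 1.34 lie farthest right in the left panel, while LAMB3 at 0.80 and LOXL1 at -0.55 mark the ends of the filled points in the right panel.

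The count between MTAP-positive and MTAP-negative cells depended on the fit. It was 10 with only those 6 arrays fitted, 10 with the ACTB difference as a covariate, and 2 (FN1 and THBS2) with that covariate and the replicate number together, when 98 of all genes changed. The 6 genes whose call that covariate alone ended were COL6A2, COL6A3, COL13A1, LAMA4, TNC and EFEMP1 (adjusted p = 0.211, 0.134, 0.146, 0.0613, 0.219 and 0.0524). The count was also 10 without MTAP-positive replicate 3, MTAP-negative replicate 1 or MTAP-negative replicate 3. Centring every array on its median gave 12 higher and 2 lower genes (LOX and HSPG2), and it moved the share of changed genes that were higher to 45.4% of all changed genes, against 63.0% without centring. The part of RNA quality in the difference was not tested beyond these fits. With the inhibitor against MTAP-positive cells, the count of genes that rose was 3 without inhibitor-treated replicate 2 or 3 and 9 without MTAP-positive replicate 3.

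Few fibrillar collagens had values. Of 5 listed chains of types I, V and XI, only COL1A1, a chain of the main collagen of bone and skin, had values. It read 6.93, 7.02 and 7.03 in inhibitor-treated cells, 7.10, 6.78 and 7.0 in MTAP-positive cells, and 7.19, 6.91 and 7.13 in MTAP-negative cells. The 3 groups overlapped and lay close to log2 of 100, the level that every probe set with values reached on at least 3 arrays. COL1A2, COL5A1, COL5A2 and COL11A1 had no value on any array.

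The 3 type VI collagen chains, which form beaded filaments around cells, all rose in MTAP-positive cells, where 11.7% of all genes rose. COL6A1 read 10.04, 9.94 and 9.92 in inhibitor-treated cells, 10.13, 9.91 and 10.08 in MTAP-positive cells, and 9.24, 9.37 and 9.18 in MTAP-negative cells. The MTAP-negative arrays were lowest and did not overlap with either other group, and the difference of MTAP-positive from MTAP-negative cells was 0.78 ± 0.10 (log2, SE, adjusted p = 8.35e-04). COL6A2 read 8.87, 8.95 and 9.02 in inhibitor-treated cells, 8.78, 8.21 and 8.87 in MTAP-positive cells, and 7.84, 7.76 and 6.31 in MTAP-negative cells. MTAP-negative replicate 3, the array with the lowest ACTB difference, stood far below the rest. The COL6A2 difference was 1.32 ± 0.34 (adjusted p = 0.0248), 0.86 with the ACTB covariate (adjusted p = 0.211), and not past the threshold without MTAP-positive replicate 1 or 3 (adjusted p = 0.0629 and 0.0822). Without MTAP-negative replicate 3 it was 0.82 and passed (adjusted p = 0.0198). Its second probe set, in which the MTAP-negative arrays had an SD of 0.04, gave 0.85 (adjusted p = 0.00284 over all probe sets). COL6A3 read 11.91, 11.77 and 11.93 in inhibitor-treated cells, 12.00, 12.09 and 11.73 in MTAP-positive cells, and 11.48, 11.53 and 11.57 in MTAP-negative cells. It rose by 0.41 ± 0.11 (adjusted p = 0.0306), a call lost without MTAP-positive replicate 1 or 2 or any 1 of the MTAP-negative arrays (adjusted p from 0.0615 to 0.0794), and also with only the 2 groups fitted, the ACTB covariate, arrays centred or array weights (adjusted p = 0.074, 0.134, 0.0718 and 0.0622). Inhibitor-treated and MTAP-positive arrays overlapped for all 3 chains. Against MTAP-negative cells, inhibitor-treated cells were higher by 0.70 ± 0.10 for COL6A1, 1.65 ± 0.34 for COL6A2 and 0.34 ± 0.11 for COL6A3 (adjusted p = 6.19e-04, 0.00429 and 0.0384). The last of these passed only while no inhibitor-treated or MTAP-negative array was left out (adjusted p from 0.0518 to 0.122). The second probe set of COL6A2 gave 0.86 for inhibitor-treated over MTAP-negative cells (adjusted p = 0.00119 over all probe sets).

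Of the network collagens of basement membrane, COL4A2 rose with the inhibitor. COL4A1 and COL4A2 encode the 2 chains of the common type IV collagen molecule. COL4A2 read 11.49, 11.47 and 11.45 in inhibitor-treated cells, 11.03, 10.99 and 11.11 in MTAP-positive cells, and 10.88, 10.95 and 11.06 in MTAP-negative cells. The inhibitor-treated arrays were highest and the other 2 groups overlapped. The COL4A2 rise over MTAP-positive cells was 0.43 ± 0.09 (adjusted p = 0.0155), which is 1.35-fold. That call was lost without inhibitor-treated replicate 1, 2 or 3 (adjusted p = 0.0556, 0.0511 and 0.0643), although the difference stayed between 0.42 and 0.44 in those fits. It was also lost with the probe sets of the gene averaged (adjusted p = 0.183), and the second probe set of COL4A2 gave 0.40, which did not pass (adjusted p = 0.583 over all probe sets). COL4A1 read 10.35, 10.23 and 10.14 in inhibitor-treated cells, 9.86, 9.66 and 9.86 in MTAP-positive cells, and 9.55, 10.01 and 10.04 in MTAP-negative cells. All inhibitor-treated arrays lay above the rest, but the difference of 0.44 ± 0.14 from MTAP-positive cells did not pass (adjusted p = 0.0625). It passed in 4 of 21 alternatives. Among these were the probe sets of COL4A1 averaged (0.41, adjusted p = 0.0186), only the 2 groups fitted (adjusted p = 0.041) and array weights (adjusted p = 0.0476). The second probe set of COL4A1 gave 0.38 for the same comparison and passed over all probe sets (adjusted p = 0.0484). Against MTAP-negative cells, inhibitor-treated cells were higher by 0.51 ± 0.09 for COL4A2 (adjusted p = 0.00221) and by 0.37 ± 0.14 for COL4A1, which did not pass (adjusted p = 0.0651). The second probe set of COL4A1 was higher by 0.79 in the same comparison and by 0.41 in MTAP-positive over MTAP-negative cells (adjusted p = 6.54e-04 and 0.0289 over all probe sets), where the brightest one gave -0.08 ± 0.14 (adjusted p = 0.745). With the probe sets of COL4A1 averaged, inhibitor-treated cells were higher than MTAP-negative cells by 0.58 (adjusted p = 0.00107). COL8A1 and COL7A1 had no value on any array.

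Among the other collagens, COL13A1 rose in MTAP-positive cells. This transmembrane collagen sits at sites of cell adhesion. It read 12.17, 11.99 and 12.03 in inhibitor-treated cells, 11.97, 11.95 and 11.93 in MTAP-positive cells, and 11.60, 11.65 and 11.49 in MTAP-negative cells. The MTAP-negative arrays were lowest, by 0.37 ± 0.10 against MTAP-positive cells (adjusted p = 0.0239) and by 0.48 ± 0.10 against inhibitor-treated cells (adjusted p = 0.00322). The difference from MTAP-positive cells was not past the threshold without MTAP-positive replicate 1 or 3 or MTAP-negative replicate 1 or 3 (adjusted p from 0.0517 to 0.0836). COL18A1, the basement membrane collagen that yields endostatin, read 7.05, 6.81 and 7.38 in inhibitor-treated cells, 7.02, 6.59 and 7.0 in MTAP-positive cells, and 6.53, 6.34 and 6.28 in MTAP-negative cells. The MTAP-negative arrays were lowest and the other 2 groups overlapped. All 3 MTAP-negative arrays, with a mean of 6.38, lay under log2 of 100. This probe set thus has values only through arrays of the other 2 groups, so its tests are no independent support for a rise. COL18A1 is still counted among the 23 genes that rose in inhibitor-treated over MTAP-negative cells. It is also in the counts of genes whose MTAP-positive or inhibitor-treated arrays lay above all MTAP-negative arrays. The 17 calls that passed in all fits that left out 1 array include it too. Its rise in inhibitor-treated over MTAP-negative cells is given as at least 1.35-fold (adjusted p = 0.00835). For MTAP-positive over MTAP-negative cells the rise was at least 1.17-fold, with adjusted p = 0.0648, and 0.0262 with the replicate number as a block. COL12A1, which decorates collagen fibrils, read 9.16, 9.26 and 9.25 in inhibitor-treated cells, 8.72, 8.63 and 9.53 in MTAP-positive cells, and 8.58, 8.65 and 8.87 in MTAP-negative cells. MTAP-positive replicate 3 was the highest of the 9 arrays. With all 9 arrays and no covariate, block or weights, no comparison of COL12A1 passed. The difference of inhibitor-treated from MTAP-negative cells was then 0.52 ± 0.20 (adjusted p = 0.0664). It passed with the replicate number as a block, the ACTB covariate or only the 2 groups fitted (adjusted p = 0.0255, 0.0351 and 0.00453). Without MTAP-positive replicate 3 the inhibitor difference was 0.55, against 0.26 with it, and passed (adjusted p = 0.0201), as did that of inhibitor-treated from MTAP-negative cells (0.52, adjusted p = 0.00557). With array weights the MTAP-positive difference was 0.64 (adjusted p = 0.0315), against 0.26. COL15A1 and COL16A1 had no value on any array.

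All 7 listed laminin chains had values. A laminin molecule joins 1 alpha, 1 beta and 1 gamma chain. Of the 7 chains, 3 rose in MTAP-positive over MTAP-negative cells (LAMA5, LAMB1 and LAMA4), 1 rose with the inhibitor (LAMB3), and 6 were higher in inhibitor-treated than in MTAP-negative cells, where 11.7%, 5.95% and 18.8% of all genes rose. LAMA5, an alpha chain of many adult basement membranes, read 9.23, 9.14 and 9.18 in inhibitor-treated cells, 9.29, 9.14 and 9.25 in MTAP-positive cells, and 8.44, 8.31 and 8.04 in MTAP-negative cells. The MTAP-positive arrays were higher by 0.96 ± 0.12 (adjusted p = 4.76e-04, 1.95-fold) and overlapped with the inhibitor-treated arrays. LAMB1, a widespread beta chain, read 11.01, 10.72 and 10.93 in inhibitor-treated cells, 10.47, 10.40 and 10.77 in MTAP-positive cells, and 9.86, 10.20 and 9.91 in MTAP-negative cells. It rose in MTAP-positive cells by 0.56 ± 0.14 (adjusted p = 0.0211), and not without MTAP-positive replicate 3 or MTAP-negative replicate 1 or 3 (adjusted p = 0.0768, 0.0655 and 0.0678).

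LAMA4, the alpha chain of blood vessel and muscle laminins, read 10.79, 10.74 and 10.89 in inhibitor-treated cells, 10.47, 10.23 and 10.55 in MTAP-positive cells, and 9.73, 10.16 and 10.02 in MTAP-negative cells. The 3 groups did not overlap. MTAP-positive cells were higher than MTAP-negative cells by 0.45 ± 0.13 (adjusted p = 0.0405), a call kept only without MTAP-positive replicate 2 or MTAP-negative replicate 2 among the 9 fits that left out 1 array (adjusted p from 0.0574 to 0.129 in the other 7). The other probe sets of LAMA4 gave -0.18 and 0.38 here, neither of which passed (adjusted p = 0.411 and 0.119 over all probe sets). With the 3 probe sets averaged the difference was 0.22 (adjusted p = 0.216). With the inhibitor the difference was 0.39 ± 0.13 and did not pass (adjusted p = 0.0785). The other 2 probe sets of LAMA4 did rise with the inhibitor, by 0.86 and 1.08 (adjusted p = 0.00655 and 0.00419 over all probe sets), so the result for this gene depended on the probe set. Against MTAP-negative cells, inhibitor-treated cells were higher by 0.84 ± 0.13 (adjusted p = 9.41e-04).

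LAMB3, a chain of the laminin that anchors skin epithelium, had the largest rise of the set with the inhibitor among the brightest probe sets. It read 11.76, 11.69 and 11.84 in inhibitor-treated cells, 11.13, 10.58 and 11.18 in MTAP-positive cells, and 11.39, 10.88 and 11.13 in MTAP-negative cells. Untreated MTAP-positive and MTAP-negative arrays overlapped, with the inhibitor-treated arrays above both. The rise over MTAP-positive cells was 0.80 ± 0.17 (adjusted p = 0.0152, 1.74-fold), with adjusted p = 0.0695 without inhibitor-treated replicate 3. Over MTAP-negative cells it was 0.63 ± 0.17 (adjusted p = 0.0174), lost without inhibitor-treated replicate 3 or MTAP-negative replicate 2 (adjusted p = 0.0626 and 0.0678). LAMC1, the gamma chain of most laminins, read 11.73, 11.68 and 11.61 in inhibitor-treated cells, 11.33, 11.46 and 11.50 in MTAP-positive cells, and 11.05, 11.32 and 11.16 in MTAP-negative cells. These groups stood in 3 separate ranges, yet each step of 0.25 ± 0.11 failed (adjusted p = 0.151 for the inhibitor and 0.121 between MTAP-positive and MTAP-negative cells). The difference of inhibitor-treated from MTAP-negative cells, 0.50 ± 0.11, passed (adjusted p = 0.00462). The second probe set of LAMC1 rose with the inhibitor by 0.57 (adjusted p = 0.0175 over all probe sets).

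LAMB2 and LAMA1 complete the laminins. LAMB2, the beta chain of the kidney filter and the neuromuscular junction, read 8.52, 8.03 and 8.66 in inhibitor-treated cells, 8.57, 7.73 and 8.55 in MTAP-positive cells, and 7.74, 7.56 and 7.45 in MTAP-negative cells. Replicate 2 was the lowest array of both the inhibitor-treated and the MTAP-positive group. The MTAP-positive difference of 0.70 ± 0.23 missed the threshold (adjusted p = 0.0569) and passed with the replicate number as a block (adjusted p = 0.0137). LAMB2 rose in inhibitor-treated over MTAP-negative cells by 0.82 ± 0.23 (adjusted p = 0.018), a call lost without inhibitor-treated replicate 1 or 3 or MTAP-negative replicate 2 or 3 (adjusted p from 0.0543 to 0.0751). LAMA1, the alpha chain of early embryonic basement membrane, averaged 6.99 ± 0.05 in inhibitor-treated cells, 6.89 ± 0.23 in MTAP-positive cells and 6.84 ± 0.27 in MTAP-negative cells (SD, n = 3 each). Its groups overlapped in all comparisons.

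NID1 was higher in each step. It encodes nidogen, which links the laminin sheet to type IV collagen. NID1 read 9.92, 9.65 and 9.78 in inhibitor-treated cells, 9.06, 8.89 and 9.33 in MTAP-positive cells, and 8.27, 8.55 and 8.38 in MTAP-negative cells. The 3 groups formed 3 separate ranges. MTAP-positive cells exceeded MTAP-negative cells by 0.69 ± 0.14 (adjusted p = 0.00642), and inhibitor-treated cells exceeded MTAP-positive cells by 0.69 ± 0.14 (adjusted p = 0.00952), 1.62-fold each. Inhibitor-treated cells were 2.62-fold above MTAP-negative cells (log2 difference 1.39 ± 0.14, adjusted p = 6.27e-05). The first 2 differences share the MTAP-positive arrays. The second probe set of NID1 gave 0.73 between MTAP-positive and MTAP-negative cells (adjusted p = 0.00557 over all probe sets) and 0.40 for the inhibitor, which did not pass (adjusted p = 0.0728). HSPG2, perlecan, a heparan sulfate proteoglycan that binds laminin and nidogen, averaged 7.09 ± 0.06 in inhibitor-treated cells, 6.90 ± 0.17 in MTAP-positive cells and 7.26 ± 0.25 in MTAP-negative cells (SD, n = 3 each). The MTAP-positive difference of -0.36 ± 0.14 did not pass (adjusted p = 0.0933), but did after arrays were centred (adjusted p = 0.0387) or quantile normalised again (adjusted p = 0.0301). NID2 had no value on any array.

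Of the 6 fibronectin, thrombospondin and matricellular genes 5 rose in MTAP-positive over MTAP-negative cells, where 11.7% of all genes rose. THBS2 and FN1 had the 2 largest differences of the set. THBS2, a matricellular protein that binds cells and matrix proteases, read 11.51, 11.34 and 11.27 in inhibitor-treated cells, 10.84, 10.58 and 11.24 in MTAP-positive cells, and 8.88, 8.89 and 9.12 in MTAP-negative cells. The MTAP-negative arrays lay far below the rest. MTAP-positive cells were 3.79-fold higher (log2 difference 1.92 ± 0.16, adjusted p = 6.81e-05) and inhibitor-treated cells 5.31-fold higher (2.41 ± 0.16, adjusted p = 8.5e-06) than MTAP-negative cells. All 3 inhibitor-treated arrays were above all MTAP-positive arrays, by 0.49 ± 0.16, which missed the threshold (adjusted p = 0.0703) and passed with the replicate number as a block (adjusted p = 0.0406).

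FN1, fibronectin, the fibre-forming ligand of several integrins, read 12.50, 12.38 and 12.26 in inhibitor-treated cells, 12.14, 11.88 and 12.44 in MTAP-positive cells, and 10.61, 10.94 and 10.90 in MTAP-negative cells. Inhibitor-treated and MTAP-positive arrays overlapped and both lay above MTAP-negative arrays. MTAP-positive cells were 2.53-fold higher than MTAP-negative cells (1.34 ± 0.15, adjusted p = 3.27e-04), and the 4 probe sets of FN1 ranged from 1.27 to 1.37. FN1 and THBS2 were the genes of the set that passed for MTAP-positive against MTAP-negative cells in every alternative run for them, with adjusted p up to 0.044 for FN1 and 0.0235 for THBS2. THBS1, which activates latent TGF-beta, read 9.75, 9.44 and 9.24 in inhibitor-treated cells, 9.56, 9.02 and 9.71 in MTAP-positive cells, and 8.52, 8.60 and 8.54 in MTAP-negative cells. It rose in MTAP-positive cells by 0.88 ± 0.18 (adjusted p = 0.00788), and its other 2 probe sets rose by 1.06 and 1.42.

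SPARC, TNC and TGFBI are matricellular or adhesive glycoproteins. SPARC, which binds collagen, read 13.10, 13.01 and 13.04 in inhibitor-treated cells, 13.09, 13.05 and 13.04 in MTAP-positive cells, and 12.55, 12.36 and 12.59 in MTAP-negative cells. Inhibitor-treated and MTAP-positive arrays covered the same narrow range, and MTAP-positive cells were higher than MTAP-negative cells by 0.56 ± 0.10 (adjusted p = 0.00351). TNC, tenascin C, read 9.5, 9.39 and 9.34 in inhibitor-treated cells, 9.18, 9.13 and 9.15 in MTAP-positive cells, and 8.42, 9.06 and 8.46 in MTAP-negative cells. MTAP-negative replicate 2 was close to the MTAP-positive arrays. The TNC difference of 0.51 ± 0.16 between MTAP-positive and MTAP-negative cells (adjusted p = 0.0462) passed without MTAP-negative replicate 2 and in none of the other 8 fits that left out 1 array (adjusted p from 0.0625 to 0.144). TGFBI, an integrin-binding protein named for its induction by TGF-beta, read 9.91, 9.95 and 9.63 in inhibitor-treated cells, 9.41, 9.15 and 9.19 in MTAP-positive cells, and 9.42, 9.29 and 9.47 in MTAP-negative cells. The untreated groups overlapped, and the inhibitor-treated arrays lay above both. TGFBI rose with the inhibitor by 0.58 ± 0.12 over MTAP-positive cells (adjusted p = 0.0129), with adjusted p = 0.0512 without inhibitor-treated replicate 2. Over MTAP-negative cells it rose by 0.44 ± 0.12 (adjusted p = 0.0178), lost without inhibitor-treated replicate 1 or 2 or MTAP-negative replicate 2 (adjusted p = 0.0665, 0.0704 and 0.0586).

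Of the elastic fibre and microfibril proteins, EFEMP1 rose in MTAP-positive cells. EFEMP1, fibulin-3, read 11.98, 11.96 and 11.97 in inhibitor-treated cells, 11.45, 11.44 and 11.87 in MTAP-positive cells, and 10.97, 11.17 and 11.05 in MTAP-negative cells. The 3 groups did not overlap. EFEMP1 rose in MTAP-positive over MTAP-negative cells by 0.53 ± 0.13 (adjusted p = 0.0179), but not without MTAP-positive replicate 3 or MTAP-negative replicate 1 or 3 (adjusted p = 0.0531, 0.0559 and 0.0531). With the inhibitor the difference was 0.38 ± 0.13, which did not pass (adjusted p = 0.0725). FBN1, the main fibrillin of microfibrils, was the 1 gene lower in inhibitor-treated than in MTAP-negative cells. It read 7.78, 7.59 and 7.67 in inhibitor-treated cells, 8.28, 7.78 and 8.15 in MTAP-positive cells, and 8.13, 8.27 and 8.08 in MTAP-negative cells. It fell by 0.48 ± 0.13 (adjusted p = 0.0185), lost without inhibitor-treated replicate 2 or 3 or MTAP-negative replicate 2 (adjusted p = 0.0662, 0.0571 and 0.062). FBN2, the fibrillin of developing tissue, averaged 7.99 ± 0.28 in inhibitor-treated cells, 7.52 ± 0.71 in MTAP-positive cells and 7.37 ± 0.05 in MTAP-negative cells (SD, n = 3 each). The MTAP-positive arrays of FBN2 spread from 6.78 to 8.19, and no comparison passed. FBLN1 and FBLN5, and the proteoglycans and matrilin of the list (VCAN, BGN and MATN2), had no value on any array.

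Of the 3 lysyl oxidases, which crosslink collagen and elastin, LOXL1 and LOXL2 rose in MTAP-positive over MTAP-negative cells, and with the inhibitor LOX rose while LOXL1 fell. Of all genes 11.7% rose in the first comparison, and with the inhibitor 5.95% rose and 7.49% fell. LOX, the founding member, read 10.53, 10.47 and 10.71 in inhibitor-treated cells, 9.83, 9.67 and 9.99 in MTAP-positive cells, and 10.07, 10.31 and 10.08 in MTAP-negative cells. The MTAP-positive arrays were lowest and the inhibitor-treated arrays highest, with no overlap. LOX rose with the inhibitor by 0.74 ± 0.12 over MTAP-positive cells (adjusted p = 0.00501, 1.67-fold), and its second probe set rose by 0.92. The difference of MTAP-positive from MTAP-negative cells, -0.32 ± 0.12, did not pass (adjusted p = 0.0909). It did in the second probe set, which fell by 0.66 (adjusted p = 0.00534 over all probe sets), and after centring (adjusted p = 0.0431). Over MTAP-negative cells, inhibitor-treated cells were higher by 0.42 ± 0.12 (adjusted p = 0.022), lost without inhibitor-treated replicate 3 or MTAP-negative replicate 1 or 3 (adjusted p = 0.0924, 0.0715 and 0.0677).

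LOXL1, the family member needed for elastic fibre upkeep in mice, read 9.08, 9.24 and 9.0 in inhibitor-treated cells, 9.75, 9.59 and 9.63 in MTAP-positive cells, and 8.86, 8.75 and 8.57 in MTAP-negative cells. The MTAP-positive arrays were highest and the inhibitor-treated arrays lay between the untreated groups. MTAP-positive cells were 1.91-fold above MTAP-negative cells (0.93 ± 0.11, adjusted p = 4.57e-04). With the inhibitor LOXL1 fell by 0.55 ± 0.11 against MTAP-positive cells (adjusted p = 0.0112), with adjusted p = 0.0637 without inhibitor-treated replicate 3. Inhibitor-treated cells stayed above MTAP-negative cells by 0.38 ± 0.11 (adjusted p = 0.0233), lost without inhibitor-treated replicate 1 or 2 or MTAP-negative replicate 3 (adjusted p = 0.0567, 0.0936 and 0.0855). LOXL2, which acts on type IV collagen, read 13.20, 13.24 and 13.18 in inhibitor-treated cells, 12.86, 12.96 and 13.00 in MTAP-positive cells, and 12.38, 12.40 and 12.37 in MTAP-negative cells. The 3 groups of LOXL2 were tight and separate. It rose by 0.56 ± 0.09 in MTAP-positive over MTAP-negative cells (adjusted p = 0.00239) and by 0.82 ± 0.09 in inhibitor-treated over MTAP-negative cells (adjusted p = 1.21e-04). The LOXL2 difference of inhibitor-treated from MTAP-positive cells, 0.26 ± 0.09, did not pass (adjusted p = 0.0787), nor did it under any alternative. The differences of LOX and LOXL1 between inhibitor-treated and MTAP-positive cells share the MTAP-positive arrays with their differences from MTAP-negative cells.

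**Figure D3:**
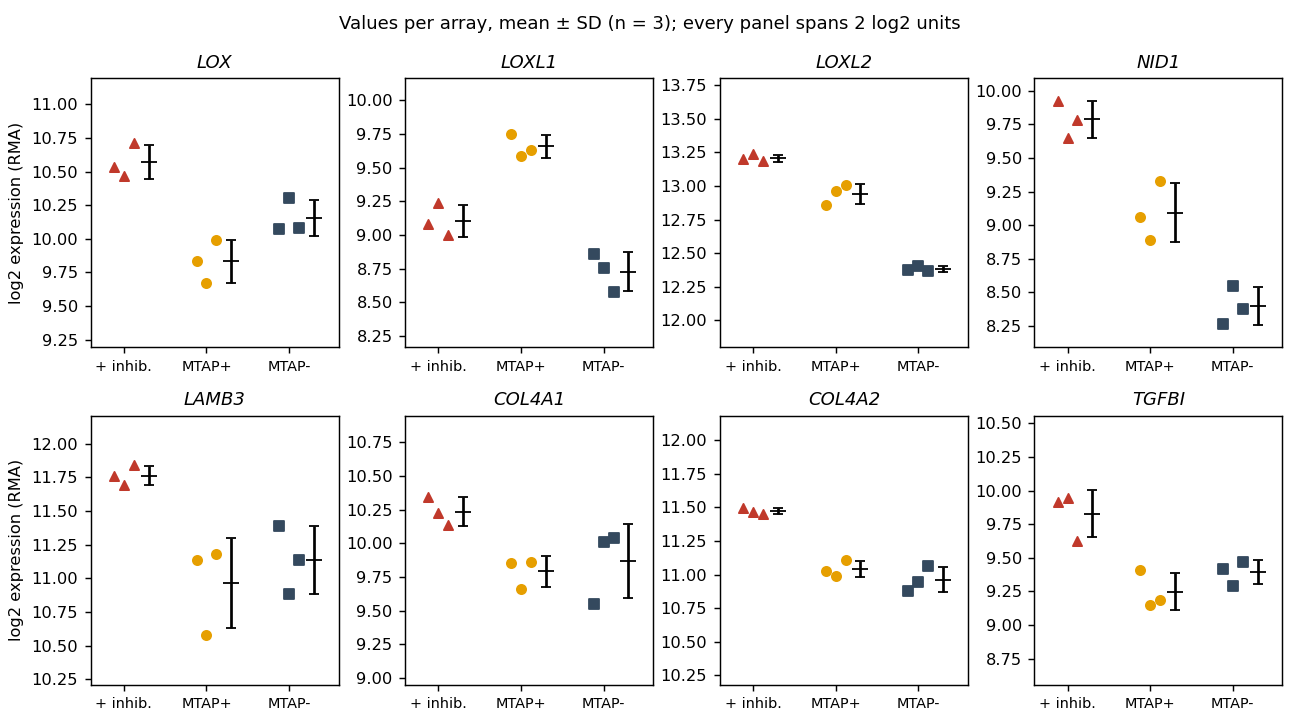
Log2 expression (RMA) of 8 matrix genes on each array, with the mean and SD of 3 arrays beside the points, for inhibitor-treated MTAP-positive, MTAP-positive and MTAP-negative cells from left to right. LOX is lowest and LOXL1 highest in MTAP-positive cells (means 9.83 and 9.66), NID1 and LOXL2 are highest with the inhibitor (9.79 and 13.21), and for LAMB3, COL4A1, COL4A2 and TGFBI all 3 inhibitor-treated arrays lie above the other 6.

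Of the 30 genes, 15 had more than 1 probe set, 35 in all. All probe sets of a gene had the same sign in 13 of the 15 between MTAP-positive and MTAP-negative cells and in 12 of the 15 for the inhibitor. Probe sets of 1 gene share their RNA and are not replicates. The 2 probe sets of COL4A1 differed in whether they passed in all 3 comparisons, and 2 of the 3 of LAMA4 passed for the inhibitor. SPARC rose by 0.93 and COL6A1 by 1.26 in their second probe sets for MTAP-positive against MTAP-negative cells, against 0.56 and 0.78 in the brightest ones.

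**Figure D4:**
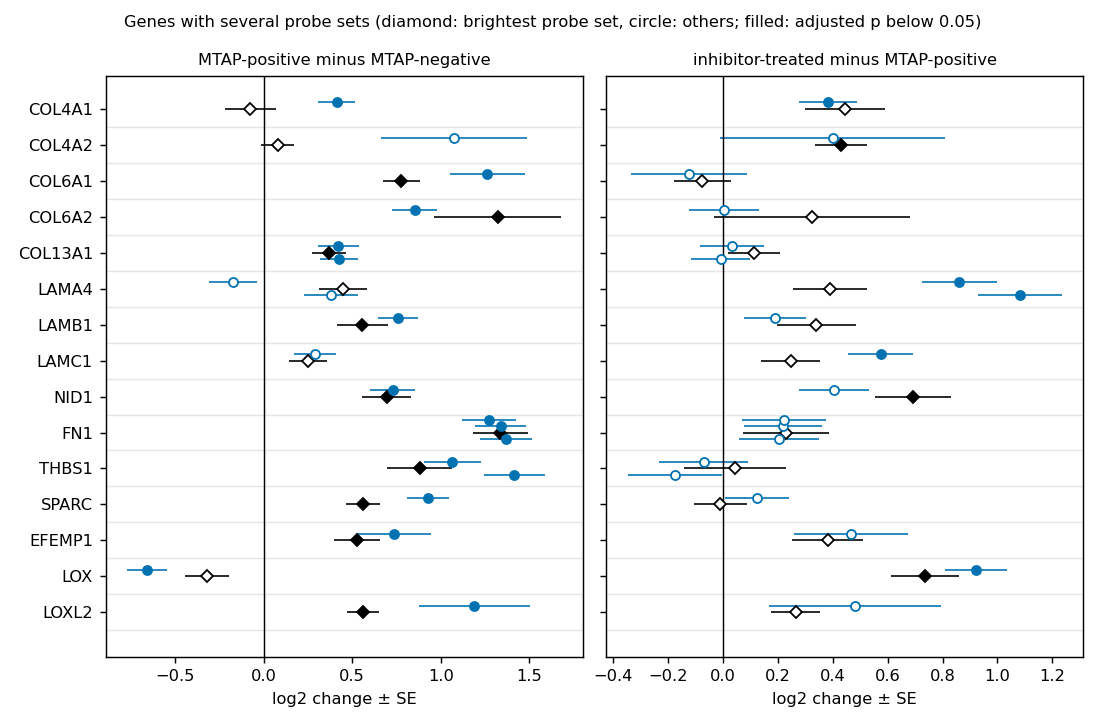
Log2 change ± SE of each probe set of the 15 matrix genes with several, for MTAP-positive minus MTAP-negative cells (left) and inhibitor-treated minus MTAP-positive cells (right), with diamonds for the brightest probe set of a gene, circles for the others and fills for adjusted p under 0.05 over all probe sets. The 4 probe sets of FN1 lie together between 1.27 and 1.37 on the left, while those of LAMA4 spread from 0.39 to 1.08 on the right.

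Genes that fold, modify and export collagen were listed for comparison. Of 30 such genes 21 had values. Of these 7 rose and 0 fell in MTAP-positive over MTAP-negative cells, 2 rose with the inhibitor, and 10 rose in inhibitor-treated over MTAP-negative cells. Of all genes 11.7%, 5.95% and 18.8% rose in these comparisons, so the 2 of 21 with the inhibitor are near the share of all genes. P4HA1, the catalytic subunit of the enzyme that hydroxylates collagen prolines, read 9.61, 10.08 and 9.77 in inhibitor-treated cells, 9.18, 9.12 and 9.15 in MTAP-positive cells, and 8.60, 8.44 and 8.59 in MTAP-negative cells. The groups were separate, with steps of 0.67 ± 0.12 for the inhibitor (adjusted p = 0.00785) and 0.61 ± 0.12 between MTAP-positive and MTAP-negative cells (adjusted p = 0.00798). The step between MTAP-positive and MTAP-negative cells had adjusted p = 0.0838 with the ACTB covariate. P3H4, a scaffold of the collagen hydroxylation complex, rose by 0.73 ± 0.16 in MTAP-positive cells (adjusted p = 0.0102), with adjusted p = 0.0589 under that covariate. CRTAP, a partner of prolyl 3-hydroxylase, rose with the inhibitor by 0.42 ± 0.10 (adjusted p = 0.0214), lost without any 1 inhibitor-treated array or MTAP-positive replicate 2 (adjusted p from 0.0502 to 0.0828). PPIB, the proline isomerase that aids collagen folding, averaged 11.99 ± 0.20 in inhibitor-treated cells, 12.24 ± 0.18 in MTAP-positive cells and 11.92 ± 0.45 in MTAP-negative cells (SD, n = 3 each) and passed in none. With the ACTB covariate 0 of the 21 rose in MTAP-positive cells and 2 in inhibitor-treated over MTAP-negative cells, and without 1 array the 7 ran down to 3 (without MTAP-positive replicate 1 or 3 or MTAP-negative replicate 3) or 4 (without inhibitor-treated replicate 1 or 3), and the 10 to 6 without inhibitor-treated replicate 3 and 5 without MTAP-negative replicate 3.

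Of 70 other collagens, laminins and matrix proteins outside the set, 13 had values. In MTAP-positive over MTAP-negative cells 5 rose and 0 fell, among them COL4A5, a further type IV collagen chain, by 0.87 ± 0.17 (adjusted p = 0.00581), PXDN, the peroxidase that crosslinks type IV collagen, by 0.80 ± 0.21 (adjusted p = 0.0269), and IGFBP7 by 0.73 ± 0.13 (adjusted p = 0.00446). Of all genes 11.7% rose in that comparison. PXDN did not pass without MTAP-positive replicate 3 or MTAP-negative replicate 2 or 3 (adjusted p = 0.0641, 0.0528 and 0.0907). SMOC1, a SPARC-related basement membrane protein, was the 1 gene of the 13 that rose with the inhibitor, by 0.64 ± 0.13 (adjusted p = 0.0131), and had adjusted p = 0.0502 and 0.0563 without inhibitor-treated replicate 2 or 3. The 1 of 13 is near the 5.95% of all genes that rose. The count of 1 was 0 without either of those arrays, 2 without MTAP-negative replicate 3, and 3 without MTAP-positive replicate 3 or MTAP-negative replicate 2. Inhibitor-treated cells exceeded MTAP-negative cells for 9 of the 13, with 18.8% of all genes rising. Among the 9 were PXDN by 1.14 ± 0.21, LOXL3 by 1.03 ± 0.16 and EFEMP2 by 0.86 ± 0.17 (adjusted p = 0.0024, 8.12e-04 and 0.00299). The 9 also include THBS4, which read 7.08, 6.89 and 7.44 in inhibitor-treated cells. It read 6.55, 6.50 and 6.55 in MTAP-positive cells, and 6.2788, 5.9192 and 6.6395 in MTAP-negative cells. All untreated arrays of THBS4 lay under 6.6439, the level that every probe set with values reached on at least 3 arrays. This probe set thus has values only through the inhibitor-treated arrays, so its tests are no independent support for a rise. SPOCK1, the proteoglycan testican-1, was the brightest of the 13 that passed in none, and averaged 9.23 ± 0.10 in inhibitor-treated cells, 9.59 ± 0.22 in MTAP-positive cells and 9.34 ± 0.23 in MTAP-negative cells (SD, n = 3 each). The count of 5 was 2 with the ACTB covariate, and 2 without MTAP-positive replicate 3 or MTAP-negative replicate 2, 3 without MTAP-positive replicate 1 or MTAP-negative replicate 1 or 3, and 8 without MTAP-positive replicate 2.

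The comparison of inhibitor-treated with MTAP-negative cells spanned both steps. Among the brightest probe sets, the largest rises were those of THBS2, COL6A2, FN1 and NID1, given above. The rank of COL6A2 depended on the probe set, since its second one gave 0.86 (adjusted p = 0.00119 over all probe sets). Its brightest one had MTAP-negative replicate 3 at 6.31, against 7.84 and 7.76 in replicates 1 and 2. With the ACTB covariate and the replicate number together the COL6A2 difference was 0.90 and did not pass (adjusted p = 0.221). FN1 was 2.96-fold higher in inhibitor-treated than in MTAP-negative cells (1.57 ± 0.15, adjusted p = 6.16e-05). Others that rose were LAMA5 by 0.92 ± 0.12, THBS1 by 0.92 ± 0.18, EFEMP1 by 0.91 ± 0.13, LAMB1 by 0.90 ± 0.14, TNC by 0.76 ± 0.16 and SPARC by 0.55 ± 0.10, with adjusted p between 2.78e-04 (LAMA5) and 0.00379 (TNC). All inhibitor-treated arrays lay above all MTAP-negative arrays for 26 of the 30 genes (86.7%), against 26.9% of all genes. The ACTB covariate ended the calls of COL6A3, TGFBI, LOXL1 and FBN1 (adjusted p = 0.0977, 0.067, 0.139 and 0.0759). The count of 23 was 14 with the ACTB covariate and the replicate number together.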

How the data were processed

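The deposited values are log2 expression made with RMA, per the submitters' processing notes in a version the sources used here do not name. The deposited table lists 54675 probe sets, of which 17474 had values. Each of these reached log2 of 100 (6.64) on 3 or more arrays, so the table had been filtered and a gene without values has no level here. Of the probe sets with values, 15485 carried 1 symbol in the platform annotation, 841 several and 1142 none; the 8 control probe sets were not used, and those of them without a single symbol are counted in the last 2 classes. Of the 15485, 15482 were found in the gene table through their Entrez number. The probe set with the highest 9-array mean stood for each of 9453 genes, with no further filter, since one at the 40th percentile would leave 26 of the 30 genes. MTAP was left out of counts.

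One limma 3.58.1 model of the 3 groups (R 4.3.3, eBayes defaults) used all 9 arrays, with Benjamini-Hochberg adjustment per comparison over all genes and a threshold of 0.05. The procedure was tested on simulated data. Log2 changes had a median SE of 0.13, and 3 arrays a group limit the precision. P-values measure only the spread between these arrays. Where a group mean lay under log2 of 100, a fold is a lower bound computed against that level.

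Same-numbered arrays deviated together between MTAP-positive and MTAP-negative cells (correlations of deviations over genes from 0.129 to 0.346) and between inhibitor-treated and MTAP-positive cells (0.302 to 0.722), so the numbers were taken to pair those arrays. Between inhibitor-treated and MTAP-negative cells they ran from 0.0229 to 0.286. The model of the 3 groups did not use this pairing, so its p-values and counts ignore it. The replicate block, 1 of the alternatives, did use it. With the block, 2452 genes changed in MTAP-positive against MTAP-negative cells, against 1750 without it. For the inhibitor against MTAP-positive cells, 1919 changed with the block, against 1270.

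The members and all gene lists, which include genes of collagen processing and other matrix genes, were chosen with earlier results of these data known. Values on every array are given for changed genes and for the brightest gene of each class; of each list outside the set, up to 3 changed genes per comparison and the brightest gene that did not pass are named. BMP1 and COLGALT1 met that rule and are given in the closing section. Alternatives were another filter, another rule for probe sets, another scaling, array weights, an RNA quality covariate, a replicate block and leaving out each array. Sequences are RefSeq's, matched by symbol.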

Additional observations from a re-analysis of the deposited data

How the results depend on the processing

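Over 21 alternatives, the 63 changes of single genes that passed under at least 1 setting gave 1287 values, of which 1130 kept their direction and side of the threshold, 116 lost the call, 39 gained it and 2 reversed. Both reversals were of COL12A1, whose inhibitor difference was -0.086 with array weights and whose MTAP-positive difference was -0.023 without MTAP-positive replicate 3, up to 0.42 in the other fits that left out 1 array, and 0.64 with array weights. A further 27 changes passed under no setting. For MTAP-positive against MTAP-negative cells, the genes of the set that rose (16) were 8 of 16 tested without probe sets whose names end in _s_at or _x_at, 10 with only the 2 groups fitted, 10 with the ACTB covariate and 2 with that covariate and the replicate block. The genes that fell (0) were 1 with probe sets averaged, 2 with centring and 1 with quantile normalisation. For inhibitor-treated against MTAP-negative cells, those that rose (23) were 12 without the _s_at and _x_at probe sets and 14 with block and covariate, and the 1 that fell was 0 in both and with the covariate alone. For the inhibitor against MTAP-positive cells, 2 fell with array weights. Over all genes, MTAP-positive against MTAP-negative cells gave 1750 changed genes, 1004 with the 2 groups fitted, 662 with the covariate and 98 with block and covariate; the inhibitor gave 1270, 1919 with the replicate block and 2057 with array weights; inhibitor-treated against MTAP-negative cells gave 3306, and 1127 with block and covariate. The cause was not tested, except that fewer probe sets or arrays enter some fits.

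With the replicate block, 18, 6 and 24 genes of the set rose in MTAP-positive against MTAP-negative, inhibitor-treated against MTAP-positive and inhibitor-treated against MTAP-negative cells. The calls it added are printed with the results, and it ended no call.

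Leaving out 1 array at a time, changed genes ran from 1014 to 2063, 370 to 1254 and 2321 to 3726 in those 3 comparisons, genes of the set that rose from 10 to 16, 3 to 9 and 19 to 25, and those that fell from 0 to 0, 0 to 2 and 0 to 1. Of the calls, 9 of 16, 2 of 6 and 17 of 24 passed in all 9 such fits. Among genes outside the set, BMP1 (0.69, adjusted p = 0.0486) in MTAP-positive over MTAP-negative cells and COLGALT1 (0.66, adjusted p = 0.0369) in inhibitor-treated over MTAP-negative cells lost the call in 15 of 19 and 6 of 20 alternatives; FKBP10 for the same comparison (0.58, adjusted p = 0.0112) lost it in 2 of 20. Genes without values may be dim or removed by the deposited filter. With 3 arrays a group, changes near or under the median SE of 0.13 are not resolved. Larger ones can also fail, such as that of THBS2 with the inhibitor (0.49 ± 0.16, adjusted p = 0.0703).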
